A study of Mus musculus with 8 samples.

Results

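Klf2, Klf4, Klf5 and Klf6 are Krüppel-like factors, and 57 of the 168842 accessible regions in the deposited table belong to them. A region was given to the protein-coding gene whose span (RefSeq, mm10) lay nearest to its midpoint, if that gene contained the midpoint or lay within 100 kb of it. By this rule Klf2 had 6 regions, Klf4 had 15, Klf5 had 14 and Klf6 had 22. Accessibility was measured by ATAC-seq, which uses the Tn5 transposase to insert sequencing adapters where chromatin is open, in mouse embryoid bodies at day 4 of differentiation.

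The labels give 4 groups of 2 libraries, each from 50000 sorted live cells. Wild-type libraries came from the embryonic stem cell line A2lox.Cre, either from its PDGFRalpha+FLK1+ cells (WT DP) or from its PDGFRalpha-FLK1+ cells (WT SP). KO DP holds the PDGFRalpha+FLK1+ fraction of a line labelled Etv2 knockout. OE SP holds the PDGFRalpha-FLK1+ fraction of the iETV2 line, labelled as overexpressing Etv2, under doxycycline at 2 µg/ml from day 2.5. FLK1 is the VEGF receptor that marks mesoderm able to give endothelium and blood, PDGFRalpha marks paraxial and cardiac mesoderm, and Etv2 is the ETS factor that starts the endothelial and blood programme. All lines were kept on irradiated embryonic fibroblasts and moved to feeder-free plates before differentiation. Genotype goes with the stem cell line, and in OE SP with doxycycline too, so an effect of Etv2, of the line and of doxycycline cannot be told apart. No label ties the libraries of a group to separate cultures. The p-values therefore rest on the spread between these libraries alone, and that spread may be technical.

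Krüppel-like factors bind CACCC boxes and GC-rich boxes through 3 zinc fingers at their C-terminus. KLF2 and KLF4 act in overlapping ways in endothelium, where blood flow raises their expression through the MEKK3, ERK5 and MEF2 kinase-to-factor cascade and where the CCM complex restrains that cascade. KLF2, KLF4 and KLF5 also keep mouse embryonic stem cells self-renewing, and mouse embryos without KLF6 form yolk sac vessels and blood poorly.

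The RefSeq promoter table (GRCm38.p6, the assembly behind mm10) held Klf2, Klf4 and Klf6. The 250 bases before each gene start are shown because regions at the gene start cover them (all 250 for Klf2 and Klf6, 238 for Klf4). Those regions were among the strongest of the 57, and no comparison called them. Capitals mark matches, on either strand, to CACCC, to GGGCGG, or to the MEF2 motif (CTA, 4 letters of A or T, then TAG).

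Klf2, chr8:72318812-72319061, plus strand: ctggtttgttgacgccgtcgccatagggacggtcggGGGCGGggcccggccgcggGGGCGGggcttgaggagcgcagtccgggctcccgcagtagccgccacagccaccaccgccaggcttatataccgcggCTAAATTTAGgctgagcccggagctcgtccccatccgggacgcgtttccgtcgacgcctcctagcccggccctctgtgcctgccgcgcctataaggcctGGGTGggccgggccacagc
Klf4, chr4:55532476-55532725, minus strand: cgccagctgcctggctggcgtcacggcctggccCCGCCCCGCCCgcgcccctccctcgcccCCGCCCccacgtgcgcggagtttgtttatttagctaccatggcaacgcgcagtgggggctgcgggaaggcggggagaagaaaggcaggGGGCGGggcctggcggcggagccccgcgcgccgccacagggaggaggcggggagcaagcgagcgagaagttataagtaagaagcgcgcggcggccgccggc
Klf6, chr13:5861239-5861488, plus strand: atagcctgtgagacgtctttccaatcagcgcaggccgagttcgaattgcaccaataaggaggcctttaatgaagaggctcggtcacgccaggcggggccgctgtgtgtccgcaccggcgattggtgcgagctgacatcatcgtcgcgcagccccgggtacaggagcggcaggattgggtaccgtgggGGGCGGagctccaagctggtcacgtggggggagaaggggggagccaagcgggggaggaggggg

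The Klf2 promoter held 2 GGGCGG boxes, 1 CACCC box on the opposite strand and a MEF2 match, CTAAATTTAG, 118 to 109 bases before the gene start. The Klf4 promoter held 4 GGGCGG matches, of which the first pair shares a base, and the Klf6 promoter held 1. Of 32851 mouse promoter windows of the same length, 0.508% held the MEF2 motif, 52.0% held CACCC and 32.7% held GGGCGG. The letters CCGGAA, a longer form of the ETS core GGAA, stood in 12.0% of all windows and in none of these 3. GGAA alone was not counted over all windows, and each of these 3 holds it on at least 1 strand. GATAA, the GATA motif, stood in 22.6% and in none of these 3. GC content was 71.2% for Klf2, 74.0% for Klf4 and 64.8% for Klf6.

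Recovered reads in regions ran from 12477601 to 18853733 per library, and the median region held 27 to 42 reads. The table was fitted over all 167573 regions with a mean of at least 10, which included all 57, and a region is called below when its adjusted p in limma was under 0.05. Differences are log2 ratios of normalised reads after adding 5, which understates changes in weak regions. The OE SP libraries differed more from each other than other replicates did, with a chi-square per degree of freedom of 4.34 against 1.15 to 1.22 elsewhere. Over all regions the median difference between OE SP and WT SP was -0.22 as deposited and -0.0037 after rescaling by the median of ratios, so the balance of rises and falls in OE SP depends on the scaling. At Etv2 itself, the targeted gene, the regions centred inside the span held 98.8 to 124 and 563 to 611 normalised reads in WT DP, 89.2 to 94.7 and 475 to 493 in WT SP, 63.1 to 75.9 and 425 to 645 in OE SP, and at most 0.840 in KO DP, which matches the knockout label.

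The strongest region inside or within 1 kb of each of the 4 genes was open in every library. The region over the Klf2 start (chr8:72318789-72319189) held 821 and 768 normalised reads in WT DP against 1111 and 1023 in WT SP, and 1054 and 954 in KO DP against 891 and 1376 in OE SP. The WT DP libraries were the lowest, and the OE SP libraries spanned all WT SP and KO DP values. The strongest Klf4 region (chr4:55530202-55530602), inside the gene, held 484 and 462 in WT DP against 555 and 572 in WT SP, and 458 and 417 in KO DP against 476 and 543 in OE SP. At Klf5, a factor of stem cells and epithelia, the region at the gene end of lower coordinate (chr14:99298409-99298809) held 1083 and 1085 in WT DP against 1317 and 1248 in WT SP, and 1149 and 1045 in KO DP against 1169 and 1424 in OE SP. The region over the Klf6 start (chr13:5861092-5861492) held 972 and 940 in WT DP against 1113 and 1141 in WT SP, and 1024 and 877 in KO DP against 1105 and 1341 in OE SP. At each of these 4 regions both WT SP libraries lay above both WT DP libraries, as they did at 40.5% of all tested regions, and none of the 4 was called in any comparison. The log2 differences between WT SP and WT DP were 0.42 (SE 0.18, adjusted p 0.145) for Klf2, 0.25 (SE 0.15, adjusted p 0.270) for Klf4, 0.24 (SE 0.14, adjusted p 0.271) for Klf5 and 0.24 (SE 0.15, adjusted p 0.295) for Klf6.

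**Figure D1:**
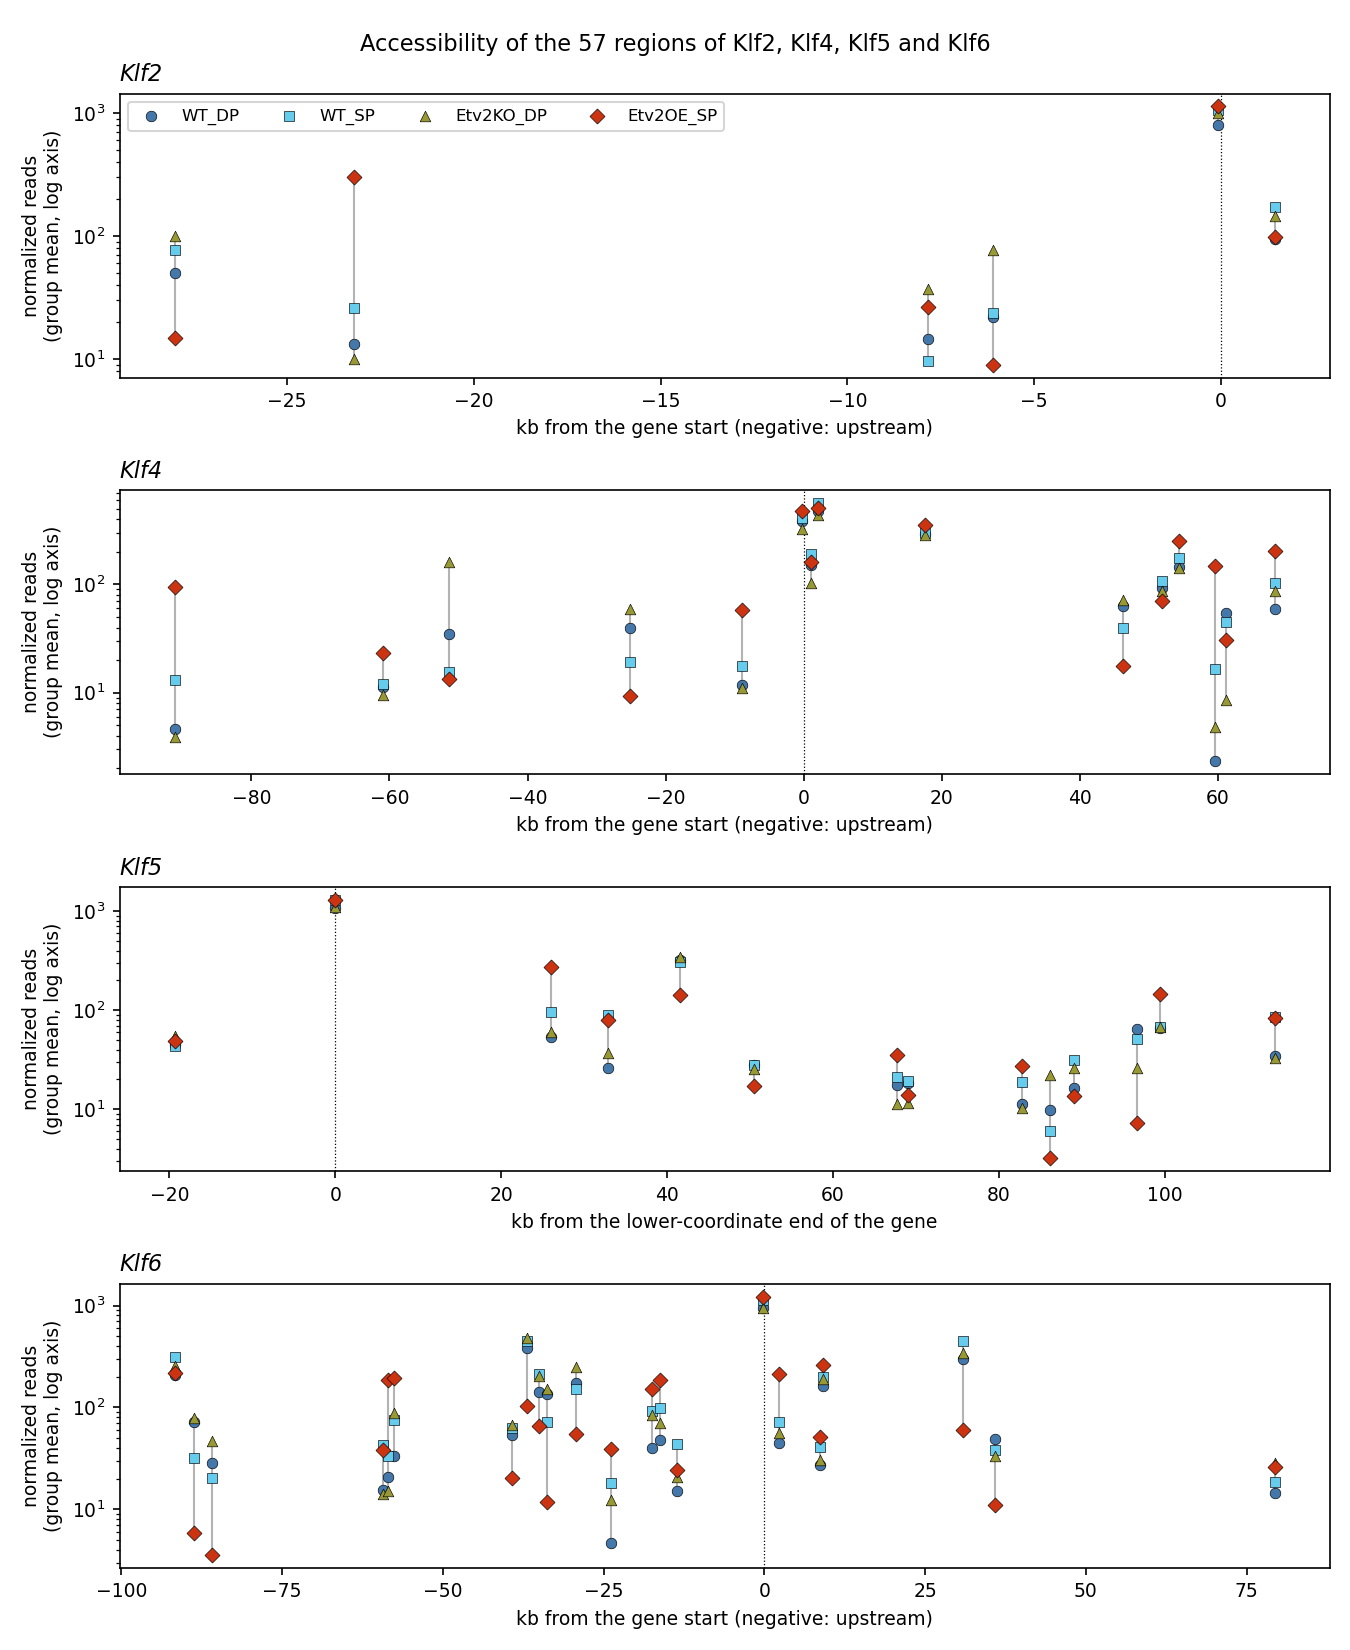
Normalised reads (log axis) of the 57 regions by distance in kb from the start of Klf2, Klf4 and Klf6 and from the end of lower coordinate of Klf5, with group means as points (Etv2KO_DP is KO DP and Etv2OE_SP is OE SP). The strongest region of Klf2, Klf5 and Klf6 sits at the gene start or end.

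Between WT SP and WT DP, more regions of the 4 genes rose than fell. Of the 57 regions, 11 rose and 3 fell in WT SP, or 24.6% against 14.3% of all tested regions (6.2% rose and 8.12% fell). By gene, 6 of 22 Klf6 regions rose and 1 fell, 3 of 14 Klf5 regions rose, 1 of 15 Klf4 regions rose and 2 fell, and 1 of 6 Klf2 regions rose. Among the 44 regions over 10 kb from their gene 10 rose and 3 fell, or 29.5%, against 16.0% of all regions at that distance. Of the 10 inside or within 1 kb of a gene 1 rose, against 12.8% called. With edgeR 11 rose and 5 fell (6.45% and 11.8% of all regions), and with DESeq2 7 rose and 3 fell (2.78% and 5.62%). In bulk libraries, a larger share of cells with an open site and a more open site per cell cannot be told apart.

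The Klf6 rises lay upstream of the gene. The region 13.6 kb upstream (chr13:5847730-5848130) held 12.6 and 18 normalised reads in WT DP and 47.8 and 40.6 in WT SP, a log2 difference of 1.29 (SE 0.25, adjusted p 0.00576). The region 16.2 kb upstream (chr13:5845066-5845466) went from 48.5 and 47.6 to 92.6 and 104, a difference of 0.96 (SE 0.18, adjusted p 0.00485). The region 57.6 kb upstream (chr13:5803712-5804112) went from 38.8 and 27.8 to 71.2 and 78.3, a difference of 1.07 (SE 0.21, adjusted p 0.00602). In each the WT SP libraries stood apart from the WT DP libraries. The other 3 rises at Klf6, 59.3, 23.9 and 17.5 kb upstream, had differences of 1.23, 1.26 and 1.13. The region 88.7 kb upstream (chr13:5772555-5772955) moved the other way, from 61.2 and 81.7 to 32.6 and 30.7, a difference of -1.05 (SE 0.24, adjusted p 0.0137).

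At Klf5 the 3 rises lay beyond the gene end of higher coordinate. The farthest, 98.5 kb away (chr14:99411746-99412146), held 32.0 and 37.7 in WT DP against 88.5 and 82.3 in WT SP, and 31.1 and 34.5 in KO DP against 79.5 and 86.7 in OE SP. It was high in both PDGFRalpha-FLK1+ groups and low in both PDGFRalpha+FLK1+ groups, and its difference between WT SP and WT DP was 1.18 (SE 0.20, adjusted p 0.00302). The region 18.2 kb away (chr14:99331396-99331796) went from 34.0 and 18 in WT DP to 95.7 and 84.3 in WT SP, a difference of 1.66 (SE 0.34, adjusted p 0.00751). The region 11.3 kb away (chr14:99324505-99324905) went from 52.4 and 54.8 to 95.7 and 97.2, a difference of 0.79 (SE 0.19, adjusted p 0.0155).

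At the endothelial factors Klf2 and Klf4 2 regions rose and 2 fell. The Klf2 rise was inside the gene (chr8:72320306-72320706), from 99.99 and 88.0 to 159 and 182, a difference of 0.83 (SE 0.18, adjusted p 0.00931). A region 54.3 kb past the downstream end of Klf4 (chr4:55472671-55473071) went from 1.94 and 2.69 to 19.3 and 13.9, a difference of 1.55 (SE 0.35, adjusted p 0.0122). It was close to empty in WT DP. The regions that fell at Klf4 lay 25.2 kb upstream (chr4:55557480-55557880), from 34.9 and 44.0 to 18.3 and 19.8, a difference of -0.88 (SE 0.25, adjusted p 0.0381), and 51.3 kb upstream (chr4:55583624-55584024), from 34.9 and 35.0 to 12.2 and 18.8, a difference of -0.98 (SE 0.25, adjusted p 0.0213). Each of the 14 calls was lost when at least 1 library was left out: leaving out WT DP replicate 1 gave 2 rises, WT SP replicate 1 also 2, WT SP replicate 2 gave 3 and WT DP replicate 2 gave 4, with at most 1 fall.

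In KO DP against WT DP, few regions of the 4 genes changed. Of the 57, 4 rose and 2 fell, or 10.5% against 3.92% of all regions (1.72% rose and 2.21% fell), and none of the 6 lay within 1 kb of a gene, where 3.73% of all regions were called. Of the 44 regions over 10 kb from their gene 4 were called, or 9.09% against 4.25%. With edgeR 7 rose and 2 fell (3.62% and 2.78% of all regions), and with DESeq2 3 rose and 1 fell (1.23% and 0.819%). The rises were 2 at Klf2, 1 at Klf4 and 1 at Klf6, and the falls were 1 at Klf4 and 1 at Klf5. This comparison and that of WT SP with WT DP share the WT DP libraries.

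The region 51.3 kb upstream of Klf4, named above, held 34.9 and 35.0 in WT DP against 12.2 and 18.8 in WT SP, and 162 and 157 in KO DP against 16.0 and 10.5 in OE SP. KO DP stood far above every other library, and the log2 difference from WT DP was 2.04 (SE 0.25, adjusted p 0.000826). It was the only one of the 6 that was called under every alternative setting tried. Another Klf4 region, 55.8 kb past the downstream end (chr4:55471135-55471535), went from 58.2 and 51.2 in WT DP to 7.56 and 9.51 in KO DP, a difference of -2.14 (SE 0.32, adjusted p 0.00310). In WT SP it held 44.8 and 44.6, and in OE SP 17.5 and 43.4.

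Both Klf2 regions that rose in KO DP lay in the 10 kb before the gene. The region 6.1 kb upstream (chr8:72312772-72313172) held 20.4 and 23.4 in WT DP against 25.4 and 21.8 in WT SP, and 65.5 and 89.1 in KO DP against 8.75 and 9.20 in OE SP. It was highest in KO DP (log2 difference 1.60, SE 0.24, adjusted p 0.00371) and lowest in OE SP. The region 7.8 kb upstream (chr8:72311028-72311428) held 12.6 and 16.2 in WT DP against 10.2 and 8.92 in WT SP, and 40.3 and 34.5 in KO DP against 26.3 and 26.3 in OE SP, and its difference in KO DP was 1.13 (SE 0.24, adjusted p 0.0256). Around Klf2, the median over 509 regions within 2.5 Mb lay 0.25 above that of all regions in KO DP against WT DP, and its part in these results was not tested. With the local median subtracted from the called regions alone, the 4 rises and 2 falls among the 57 kept their sign. No region was tested again, so this cannot show what part the local shift had.

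At Klf6 the region 57.6 kb upstream held 82.3 and 92.7 in KO DP, and its difference from the 38.8 and 27.8 of WT DP was 1.28 (SE 0.21, adjusted p 0.00543). At Klf5 the region 82.0 kb beyond the end of higher coordinate (chr14:99395183-99395583) went from 57.3 and 71.0 in WT DP to 32.7 and 19.0 in KO DP, a difference of -1.19 (SE 0.26, adjusted p 0.0280). Without WT DP replicate 1, WT DP replicate 2 or KO DP replicate 1 there were 2 rises, without KO DP replicate 2 there was 1, and at most 1 fall was called in any of these.

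**Figure D2:**
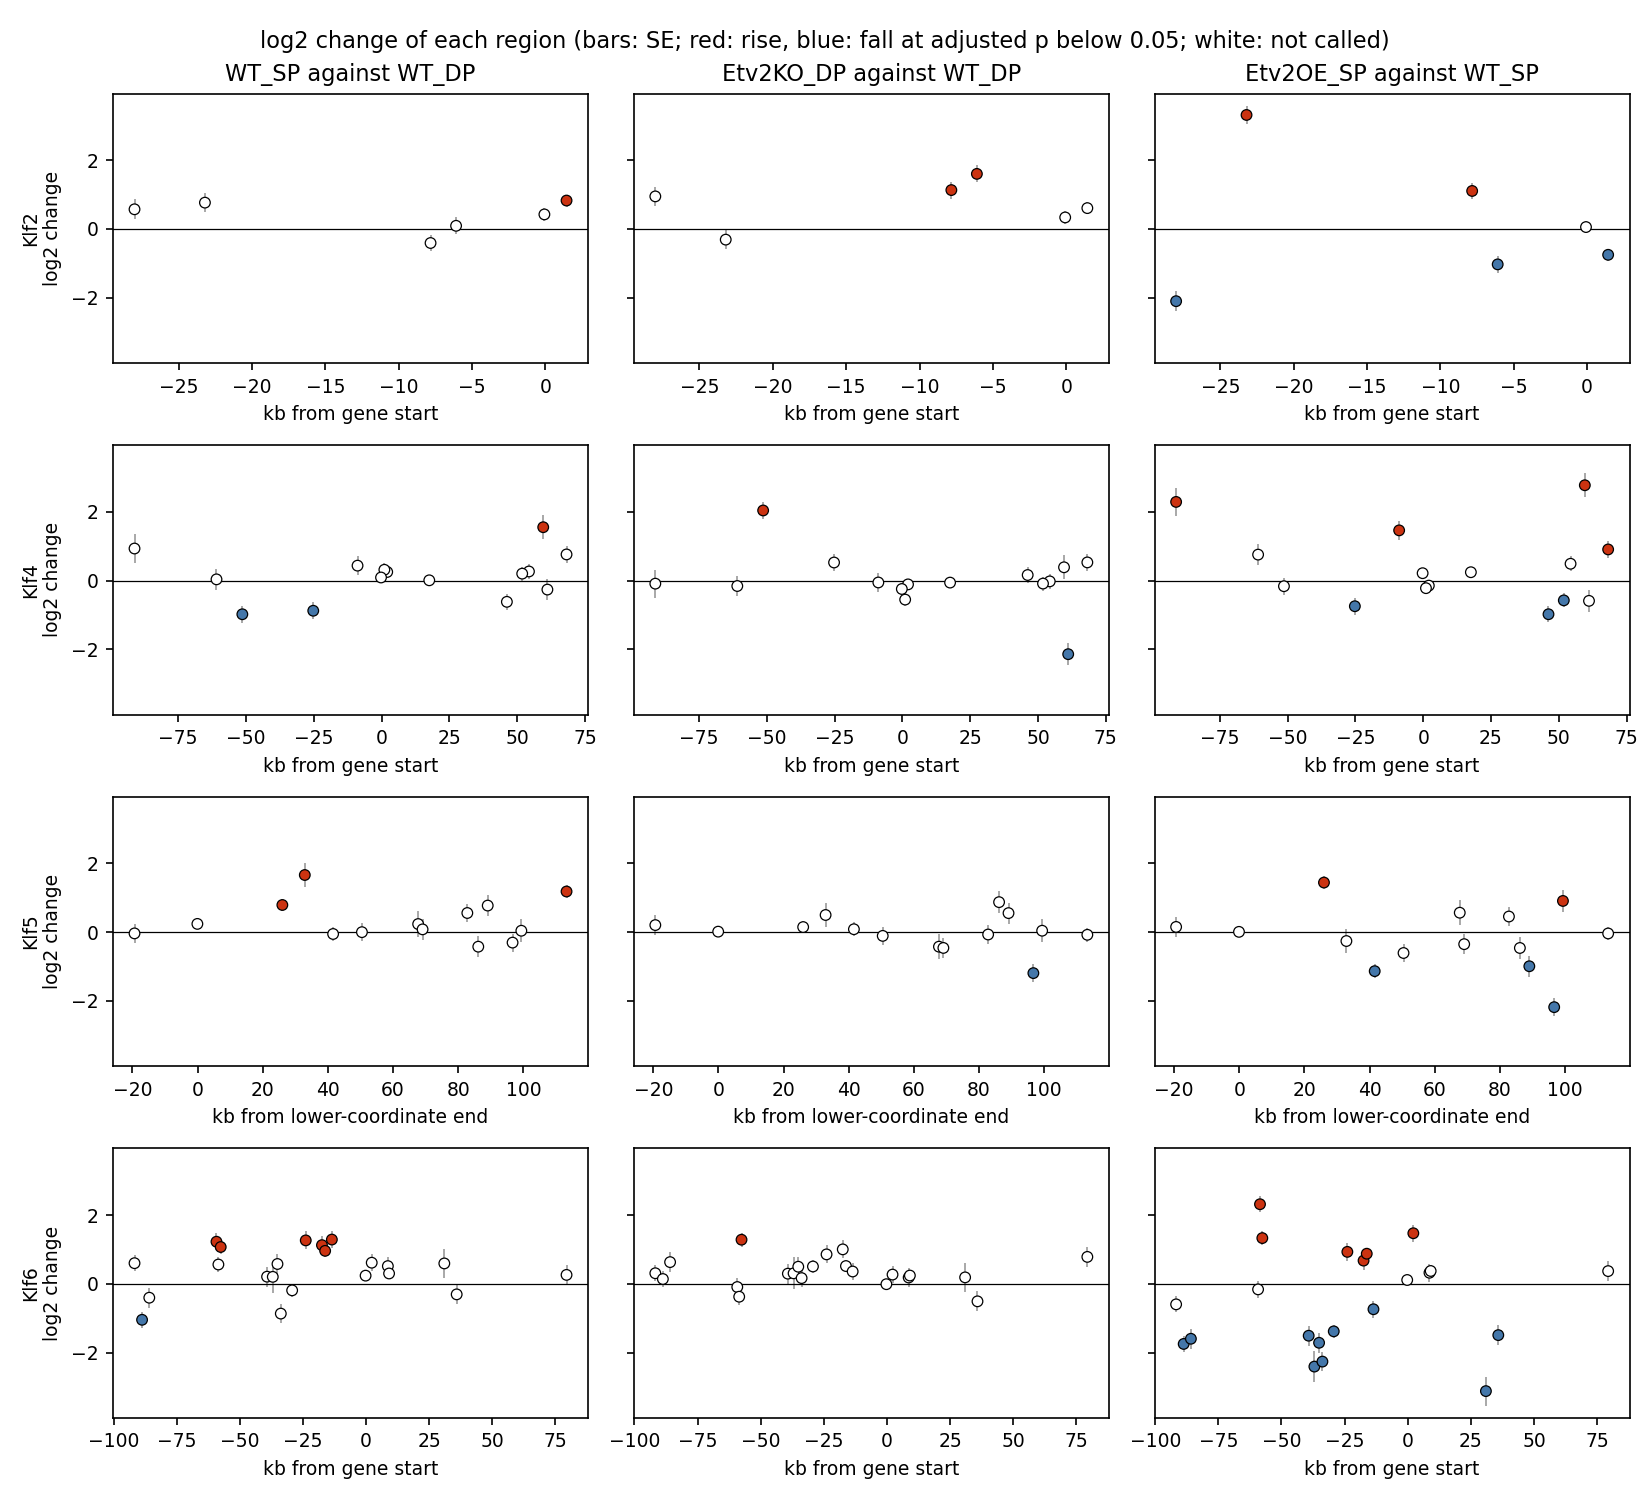
Log2 difference of each of the 57 regions in the 3 comparisons (columns) for each gene (rows), by distance in kb from the gene start or, for Klf5, the end of lower coordinate. Bars are the SE, red points rose, blue points fell and white points were not called. In OE SP against WT SP the changes at Klf6 alternate along the upstream side, from -2.41 to 2.32.

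In OE SP against WT SP, regions away from the genes changed in both directions, and no region over a gene start was called. Of the 57 regions, 14 rose and 19 fell, or 57.9% against 48.5% of all regions (16.6% rose and 31.9% fell). Klf6 had 6 rises and 10 falls among 22 regions, Klf4 had 4 and 3 among 15, Klf5 had 2 and 3 among 14, and Klf2 had 2 and 3 among 6. Of the 44 regions over 10 kb from their gene 28 were called, or 63.6% against 52.8% of all regions at that distance, and of the 10 inside or within 1 kb of a gene 2 were called, against 45.9%. Rescaling by the median of ratios gave 21 rises and 15 falls, and rescaling on the 10000 strongest regions gave 22 rises and 14 falls. Over all 167573 regions the first gave 39101 rises and 42482 falls, and the second 43578 rises and 38649 falls. With edgeR 21 rose and 15 fell (24.5% and 24.7% of all regions), and with DESeq2 16 rose and 12 fell (16.3% and 17.2%). All 14 rises and 14 of the 19 falls were called under each of the 3 rescalings. This comparison shares the WT SP libraries with that of WT SP and WT DP.

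Klf2 held the largest rise. The region 23.2 kb upstream (chr8:72295652-72296052) held 14.6 and 11.7 in WT DP against 21.4 and 30.7 in WT SP, and 6.72 and 13.1 in KO DP against 280 and 323 in OE SP. Both OE SP libraries were far above the other 6, with a log2 difference from WT SP of 3.32 (SE 0.27, adjusted p 6.04e-06), or 11.6-fold in mean normalised reads. The next region, 28.0 kb upstream (chr8:72290848-72291248), went the opposite way, from 65.1 and 89.2 in WT SP to 8.75 and 21.0 in OE SP, a difference of -2.10 (SE 0.29, adjusted p 0.000112). It held 46.6 and 53.0 in WT DP and 99.9 and 101 in KO DP. The regions 7.8 and 6.1 kb upstream, with values above, changed by 1.11 (SE 0.24, adjusted p 0.00277) and -1.03 (SE 0.24, adjusted p 0.00409). Inside the gene the region that was higher in WT SP than in WT DP held 101 and 97.2 in OE SP, a difference from WT SP of -0.75 (SE 0.18, adjusted p 0.00371). That last call was lost under rescaling on the 10000 strongest regions.

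At Klf4, the region 54.3 kb past the downstream end held 19.3 and 13.9 in WT SP and 101 and 198 in OE SP, a difference of 2.77 (SE 0.35, adjusted p 6.65e-05). The region 91.1 kb upstream (chr4:55623382-55623782) went from 14.2 and 11.9 to 47.4 and 143, a difference of 2.29 (SE 0.41, adjusted p 0.000686). The region 8.9 kb upstream (chr4:55541149-55541549) went from 16.3 and 18.8 to 47.4 and 68.3, a difference of 1.46 (SE 0.27, adjusted p 0.000812). All 3 were weak in WT DP and KO DP, at 13.1 or less. Among the falls, the region 40.9 kb past the downstream end (chr4:55486077-55486477) went from 46.8 and 32.7 to 15.3 and 19.7, a difference of -0.98 (SE 0.24, adjusted p 0.00492). The other 2 falls at Klf4, with differences of -0.58 and -0.75, were not called under any of the 3 rescalings.

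At Klf5, the region 11.3 kb beyond the end of higher coordinate rose from 95.7 and 97.2 in WT SP to 285 and 258 in OE SP, a difference of 1.44 (SE 0.19, adjusted p 7.99e-05). It was also higher in WT SP than in WT DP, so its levels ordered as WT DP, WT SP and OE SP, with KO DP at 67.2 and 53.5 beside WT DP. The region 82.0 kb away fell from 50.9 and 50.6 to 8.02 and 6.57, a difference of -2.18 (SE 0.26, adjusted p 5.16e-05). The region 26.9 kb away (chr14:99340081-99340481) fell from 311 and 308 to 109 and 175, a difference of -1.13 (SE 0.20, adjusted p 0.000702). In the other 3 groups it held 299 to 348 normalised reads. The remaining calls at Klf5 were a rise of 0.91, in which OE SP held 81.7 and 210, and a fall of -0.99, which none of the 3 rescalings called.

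Klf6, with the most regions, had 16 called of 22, where Klf2 had 5 of 6. The 5 neighbouring regions between 39.2 and 29.3 kb upstream, singled out after their values were seen, all fell, with differences from -1.38 to -2.41. The region 33.8 kb upstream (chr13:5827509-5827909) held 122 and 149 in WT DP against 70.2 and 73.4 in WT SP, and 164 and 141 in KO DP against 6.57 and 17.1 in OE SP, a difference of -2.26 (SE 0.27, adjusted p 5.25e-05). The region 29.3 kb upstream (chr13:5831995-5832395) held 148 and 154 in WT SP and 61.3 and 48.6 in OE SP, a difference of -1.38 (SE 0.18, adjusted p 8.69e-05). At 37.0 kb upstream the OE SP libraries held 35.0 and 173, both under the 430 and 459 of WT SP. The 3 regions between 23.9 and 16.2 kb upstream, next along the chromosome, rose by 0.93, 0.67 and 0.88. These 3 had also risen from WT DP to WT SP. The call of 0.67 was lost with a pseudocount of 1, a mean of at least 30, no intensity trend or the compared groups alone, and on leaving out either library of WT SP or OE SP replicate 2, and that of 0.93 was lost without WT SP replicate 2. The region after them, 13.6 kb upstream, had risen in WT SP too but went from 47.8 and 40.6 to 22.6 and 26.3 in OE SP, a difference of -0.74 (SE 0.25, adjusted p 0.0264) that was not called under the 3 rescalings, in edgeR or DESeq2, with the compared groups alone, or on leaving out either WT SP library or OE SP replicate 1. The region 59.3 kb upstream, another rise in WT SP, held 46.8 and 38.7 in WT SP and 31.4 and 44.7 in OE SP, a difference of -0.16 (SE 0.25, adjusted p 0.623).

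Farther upstream of Klf6, the region 58.5 kb away (chr13:5802789-5803189) held 21.4 and 20.7 in WT DP against 29.5 and 37.7 in WT SP, and 12.6 and 17.8 in KO DP against 183 and 189 in OE SP, a difference from WT SP of 2.32 (SE 0.23, adjusted p 1.56e-05). Its neighbour 57.6 kb away rose from 71.2 and 78.3 to 214 and 179, a difference of 1.33 (SE 0.21, adjusted p 0.000287), and is the only one of the 57 regions called in all 3 comparisons. WT DP was lowest there, WT SP and KO DP lay at 71.2 to 92.7, and OE SP was highest. Inside Klf6, the region 2.2 kb past the start (chr13:5863521-5863921) rose from 69.2 and 73.4 to 167 and 255, a difference of 1.47 (SE 0.25, adjusted p 0.000439). The largest fall of the 57 was 22.1 kb past the downstream end of Klf6 (chr13:5892265-5892665), from 435 and 470 in WT SP to 21.9 and 97.2 in OE SP, a difference of -3.12 (SE 0.42, adjusted p 0.000107). In WT DP it held 282 and 315, and in KO DP 343 and 336.

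Of the 33 called regions, 22 were called under every alternative setting that tested them. Regions with a mean under 30 were left out of the setting with a mean of at least 30. Over all 3 comparisons, 38 of the 57 regions were called in at least 1, where 55.4% of all tested regions were, 13 in exactly 2 (10.3% of all) and 1 in all 3 (0.56% of all).

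**Figure D3:**
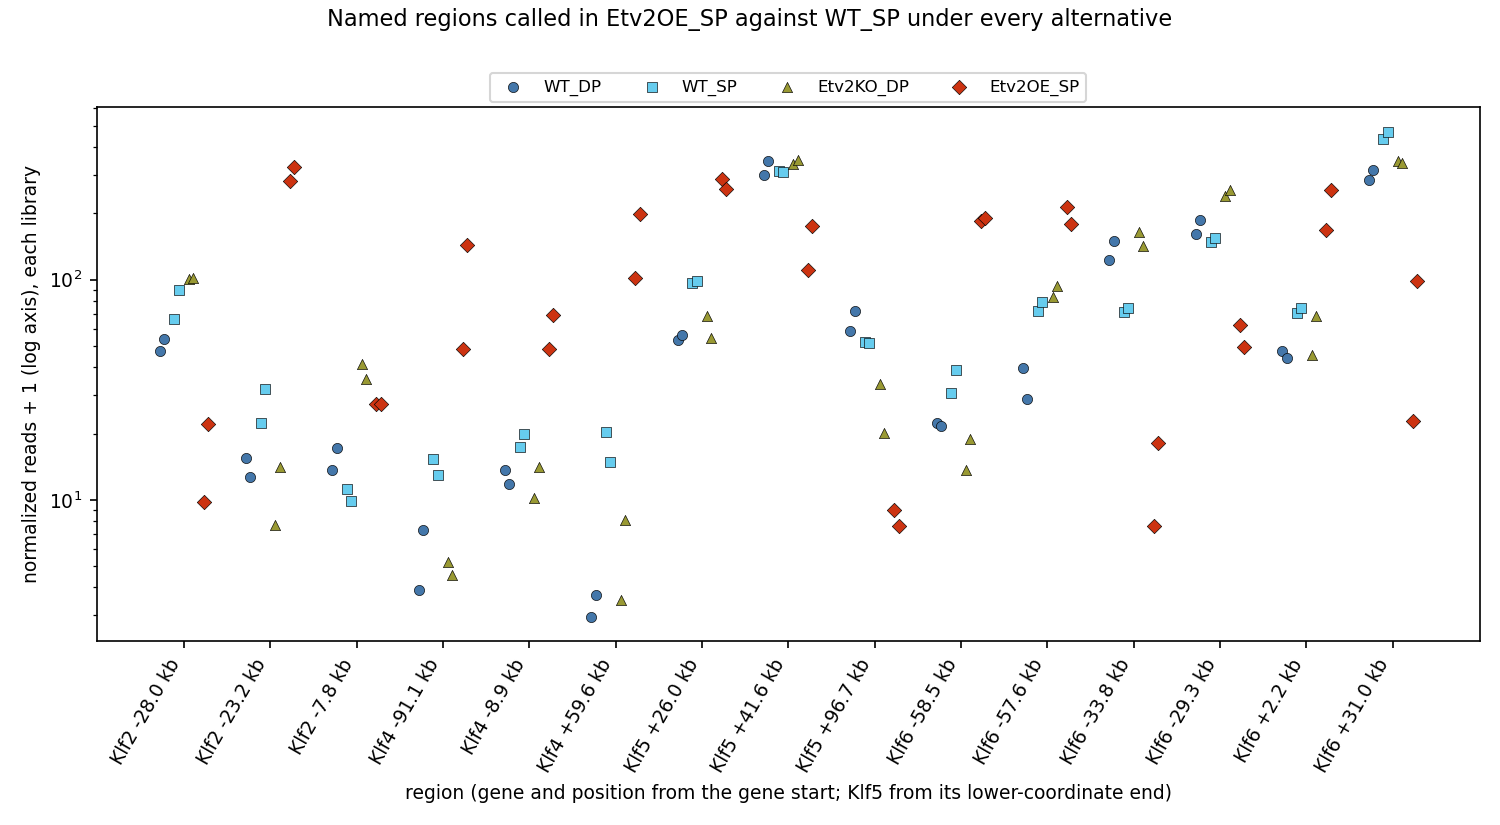
Normalised reads plus 1 (log axis) in each of the 8 libraries, for described regions called in OE SP against WT SP. Each was called under every alternative setting that tested it. Regions with a mean under 30 were left out of the setting with a mean of at least 30. Labels give the gene and the distance in kb from the gene start or, for Klf5, the end of lower coordinate. Points are single libraries, distances past a gene include its length, and the OE SP libraries lie apart from the WT SP libraries at every region shown.

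The summed normalised reads of a gene's regions changed less than single regions did. For Klf2 the sums were 1015 and 960 in WT DP against 1392 and 1356 in WT SP, and 1416 and 1333 in KO DP against 1316 and 1853 in OE SP. WT DP was lowest, while the other 3 groups overlapped. The differences were 0.47 (SE 0.15, adjusted p 0.0557) in WT SP against WT DP, 0.47 (SE 0.15, adjusted p 0.0570) in KO DP against WT DP and 0.18 (SE 0.15, adjusted p 0.362) in OE SP against WT SP. Klf2 was not called as deposited, but it was called in all 3 comparisons under each of the 3 rescalings, at 0.25 to 0.38, 0.52 to 0.57 and 0.32 to 0.50. Medians over all genes under these rescalings ran from -0.049 to 0.074, from -0.035 to -0.0058 and from 0.044 to 0.18. As deposited, the median of regions within 2.5 Mb of Klf2 lay 0.25 above that of all regions in KO DP. Its part in the Klf2 sum was not tested. The region over the start held 71.5% to 80.4% of the Klf2 sum by group.

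For Klf4 the sums were 1807 and 1835 in WT DP against 1998 and 2045 in WT SP, and 1856 and 1722 in KO DP against 2138 and 2707 in OE SP. For Klf5 they were 1779 and 1815, 2184 and 2117, 1894 and 1757, and 1927 and 2446 in the same order of groups. For Klf6 they were 2853 and 2996, 3580 and 3741, 3496 and 3432, and 2730 and 3559. The Klf4 sums were highest in OE SP, and KO DP overlapped WT DP for Klf4 and Klf5 but lay above it for Klf6. None of the 12 differences was called, where 7.46%, 7.32% and 33.9% of 18534 genes were called in the 3 comparisons. In OE SP against WT SP they were 0.25 for Klf4, 0.014 for Klf5 and -0.23 for Klf6, and those of Klf4 and Klf5 were called as higher under the 3 rescalings, at 0.45 to 0.57 and 0.15 to 0.33. Under these rescalings 5647, 7488 and 5064 of the 18534 genes were called as higher (median of ratios, 10000 strongest regions, quantile). The medians over all genes were then 0.10, 0.18 and 0.044. Without OE SP replicate 1 the OE SP differences of Klf2, Klf4 and Klf5 were 0.43, 0.42 and 0.19, beside a median of -0.0062 over all genes. Without OE SP replicate 2 that of Klf6 was -0.42, beside a median of -0.28 over all genes.

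**Figure D4:**
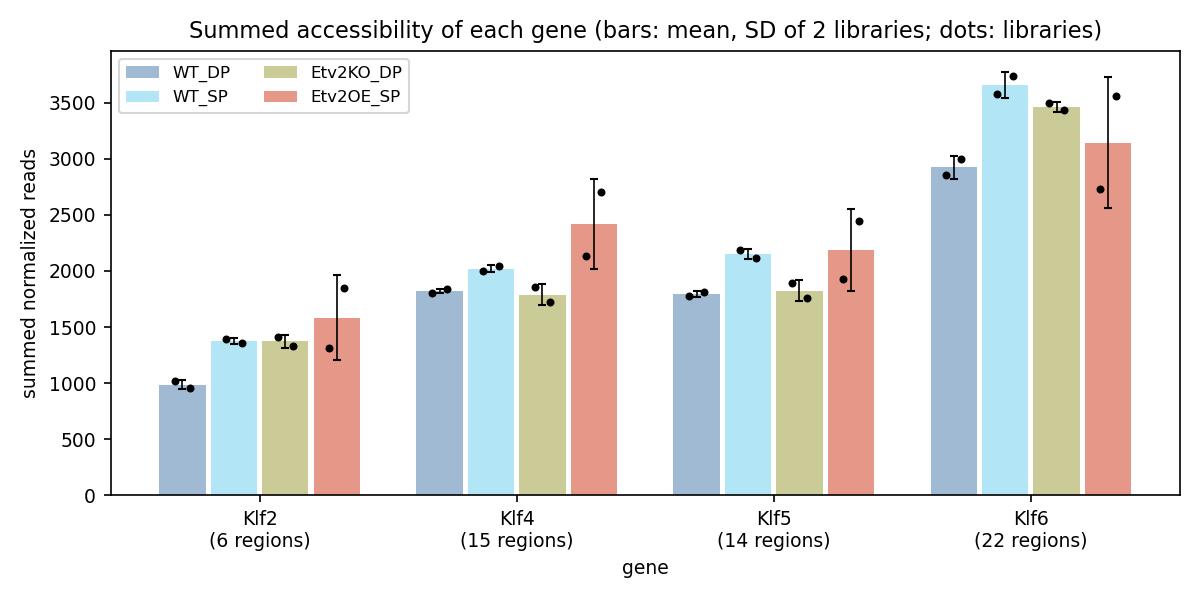
Summed normalised reads over the regions of Klf2, Klf4, Klf5 and Klf6 in each library, with the mean as a bar, the SD of 2 libraries as an error bar and the libraries as dots. WT DP is lowest for Klf2, from 960 to 1015, and the OE SP libraries are the widest apart for every gene.

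The genes whose sums moved most like each member over the 8 libraries, among 9464 genes with at least 5 regions, were Tcte2, Gsr and Itgb1 for Klf2, Enc1, Zfp521 and Rsbn1l for Klf4, Alcam, Xylb and Ahi1 for Klf5, and Fabp6, Dcps and H2bc11 for Klf6. Likeness is the root mean square difference of centred log2 sums, which was 0.0430 for Tcte2 against a median of 0.314 over genes. These are descriptions of summed accessibility.

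Of 214 regions of 13 other Krüppel-like factors, 20 rose and 12 fell in WT SP, or 9.35% and 5.61% against 6.2% and 8.12% of all regions. In KO DP 3 rose and 6 fell, or 1.40% and 2.80% against 1.72% and 2.21%. In OE SP 49 rose and 67 fell, or 22.9% and 31.3% against 16.6% and 31.9%. The medians of these 214 regions differed from those of all regions by 0.099, -0.012 and 0.017. A region at Klf13 (chr7:64004985-64005385) held 122 and 106 in WT DP against 108 and 121 in WT SP, and 424 and 433 in KO DP against 13.1 and 17.1 in OE SP. It was highest in KO DP (1.87, SE 0.19, adjusted p 0.000197) and lowest in OE SP (-2.58 against WT SP, SE 0.19, adjusted p 4.67e-06), in the order seen 6.1 kb upstream of Klf2. At Klf11 a region near the gene (chr12:24645905-24646305) held 28.2 and 32.3 in WT DP against 112 and 110 in WT SP, and 11.8 and 9.51 in KO DP against 276 and 223 in OE SP. It was called as higher in WT SP (1.72, SE 0.21, adjusted p 0.000516) under every alternative setting. It was lower in KO DP (-1.17, SE 0.21, adjusted p 0.00863), a call lost in DESeq2 and on leaving out any of the 4 libraries compared. The lowest adjusted p of the list in WT SP was a fall at Klf7, from 79.6 and 67.4 to 15.3 and 13.9 (-2.00, SE 0.24, adjusted p 0.000498). A region of Klf9 also fell, from 489 and 518 to 186 and 187 (-1.41, SE 0.17, adjusted p 0.000560). Both falls were called under every alternative setting.

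The cascade upstream of KLF2 and KLF4 was listed together with the CCM genes Krit1, Ccm2, Pdcd10 and Heg1. In this list 9 of 10 genes had regions. Of their 115 regions, 6 rose and 11 fell in WT SP (5.22% and 9.57%, against 6.2% and 8.12% of all regions). In KO DP 2 rose and 2 fell (1.74% each, against 1.72% and 2.21%). In OE SP 28 rose and 26 fell (24.3% and 22.6%, against 16.6% and 31.9%). The median OE SP difference lay 0.16 above that of all regions. A region 49.0 kb from Mef2a, which encodes a MEF2 factor, went from 25.4 and 24.8 in WT SP to 231 and 335 in OE SP (3.23, SE 0.30, adjusted p 1.08e-05). A region inside Map3k3, which encodes MEKK3, went from 13.2 and 7.93 to 108 and 112 (2.90, SE 0.29, adjusted p 1.74e-05). A region inside Mef2c went from 59.0 and 64.4 to 325 and 399 (2.45, SE 0.23, adjusted p 1.18e-05). In WT SP against WT DP the 3 genes of lowest adjusted p in the list all fell. A region outside Mef2d, which encodes another MEF2 factor, went from 228 and 208 in WT DP to 89.6 and 79.3 in WT SP (-1.32, SE 0.21, adjusted p 0.00232). A region inside Map2k5, which encodes the kinase between MEKK3 and ERK5, went from 69.9 and 62.9 to 19.3 and 21.8 (-1.48, SE 0.25, adjusted p 0.00298). A second region inside Mef2c went from 60.2 and 50.3 to 24.4 and 17.8 (-1.21, SE 0.25, adjusted p 0.00735), a call lost on leaving out either library of WT DP or the second of WT SP.

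Among 7 endothelial targets of the KLFs, 13 of 71 regions rose and 1 fell in WT SP (18.3% and 1.41%, against 6.2% and 8.12% of all regions). In KO DP 2 rose and 1 fell (2.82% and 1.41%, against 1.72% and 2.21%). In OE SP 26 rose and 22 fell (36.6% and 31.0%, against 16.6% and 31.9%). The medians of these 71 regions lay 0.28, 0.12 and 0.42 above those of all regions. A region of Eng, the endothelial co-receptor endoglin (chr2:32655871-32656271), held 54.4 and 60.2 in WT DP against 152 and 153 in WT SP, and 67.2 and 70.1 in KO DP against 457 and 527 in OE SP. It rose from WT DP to WT SP (1.34, SE 0.17, adjusted p 0.000704) and from WT SP to OE SP (1.66, SE 0.17, adjusted p 2.09e-05). A region outside S1pr1 had the lowest adjusted p of the list in OE SP. It went from 42.7 and 36.7 in WT SP to 225 and 282 in OE SP (2.53, SE 0.22, adjusted p 9.10e-06). A region inside Vcam1, which encodes an adhesion molecule that KLF2 restrains, fell in OE SP from 75.3 and 78.3 to 12.4 and 17.1 (-2.06, SE 0.22, adjusted p 2.23e-05). Another region, outside Vcam1, rose from 5.82 and 7.19 in WT DP to 28.5 and 26.8 in WT SP (1.51, SE 0.29, adjusted p 0.00531). That rise was not called under every alternative setting.

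Among 6 pluripotency partners, 5 of 131 regions rose and 7 fell in WT SP (3.82% and 5.34%, against 6.2% and 8.12% of all regions). In KO DP 0 rose and 1 fell (0% and 0.763%, against 1.72% and 2.21%). In OE SP 21 rose and 52 fell (16.0% and 39.7%, against 16.6% and 31.9%). The OE SP median lay at -0.14 relative to all regions. A region inside Pou5f1, the OCT4 gene, held 217 and 222 in WT DP against 128 and 149 in WT SP, and 206 and 187 in KO DP against 54.0 and 46.0 in OE SP, a fall of -1.38 in OE SP (SE 0.18, adjusted p 7.54e-05). Regions of Tbx3 and Tfcp2l1, further stem cell factors, fell there by -2.63 and -2.10. Inside Esrrb a region rose from 64.1 and 56.6 in WT DP to 144 and 147 in WT SP (1.20, SE 0.22, adjusted p 0.00391). It had the lowest adjusted p of the list in WT SP. Outside Esrrb lay the region that fell in KO DP (-1.28, SE 0.24, adjusted p 0.0116). That region held 104 and 104 in WT SP against 260 and 236 in OE SP. Neither Esrrb call held under every alternative setting. In KO DP the list had no rise in limma.

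Markers of the cell types that the sorts could hold differed between groups too, read against the shares over all regions given above. The 5 endothelial markers, with 89 regions, had summed normalised reads of 3955 to 4097 in WT DP, 4684 to 4847 in WT SP, 3412 to 3453 in KO DP and 7061 to 10474 in OE SP. In WT SP 12 of their regions rose and 4 fell (13.5% and 4.49%). In KO DP 4 fell (4.49%) and none rose, and in OE SP 30 rose and 18 fell (33.7% and 20.2%). The 4 paraxial and cardiac mesoderm markers had 52 regions. These summed to 7658 to 7739, 6140 to 6348, 7221 to 7824 and 3113 to 4415 in the same order of groups. There were 3 rises and 8 falls in WT SP (5.77% and 15.4%), and none was called in KO DP. In OE SP there were 9 rises and 24 falls (17.3% and 46.2%). The 4 blood markers, with 26 regions, summed to 2287 to 2336, 2813 to 2979, 1831 to 2018 and 2841 to 4154. There were 5 rises and 1 fall in WT SP (19.2% and 3.85%), and none was called in KO DP. In OE SP there were 9 rises and 3 falls (34.6% and 11.5%).

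The 4 fibroblast markers had 55 regions. These summed to 3817 to 3825 in WT DP, 4654 to 4708 in WT SP, 3962 to 4147 in KO DP and 2458 to 3537 in OE SP. There were 5 rises and 2 falls in WT SP (9.09% and 3.64%) and 1 rise in KO DP (1.82%). In OE SP there were 3 rises and 25 falls (5.45% and 45.5%). The 4 endoderm markers, with 80 regions, summed to 7082 to 7159, 7401 to 7831, 6691 to 6923 and 7659 to 9930. There were 10 rises and 4 falls in WT SP (12.5% and 5.0%), and none was called in KO DP. In OE SP there were 22 rises and 21 falls (27.5% and 26.25%). The 5 stem cell markers, with 50 regions, summed to 3355 to 3470, 3453 to 3542, 3294 to 3548 and 3195 to 3721, ranges that overlap, and 1 rose and 2 fell in WT SP, none was called in KO DP, and 10 rose and 16 fell in OE SP. The sort markers Kdr, the gene of FLK1, and Pdgfra had 71 regions. These summed to 5894 to 6176 in WT DP, 5281 to 5340 in WT SP, 6425 to 6664 in KO DP and 5235 to 7004 in OE SP. There were 10 rises and 8 falls in WT SP (14.1% and 11.3%) and 2 rises in KO DP (2.82%). In OE SP there were 22 rises and 28 falls (31.0% and 39.4%). No marker gene had a sum of 0 in any library. The part of these markers in the changes at the 4 KLF genes was not tested.

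**Figure D5:**
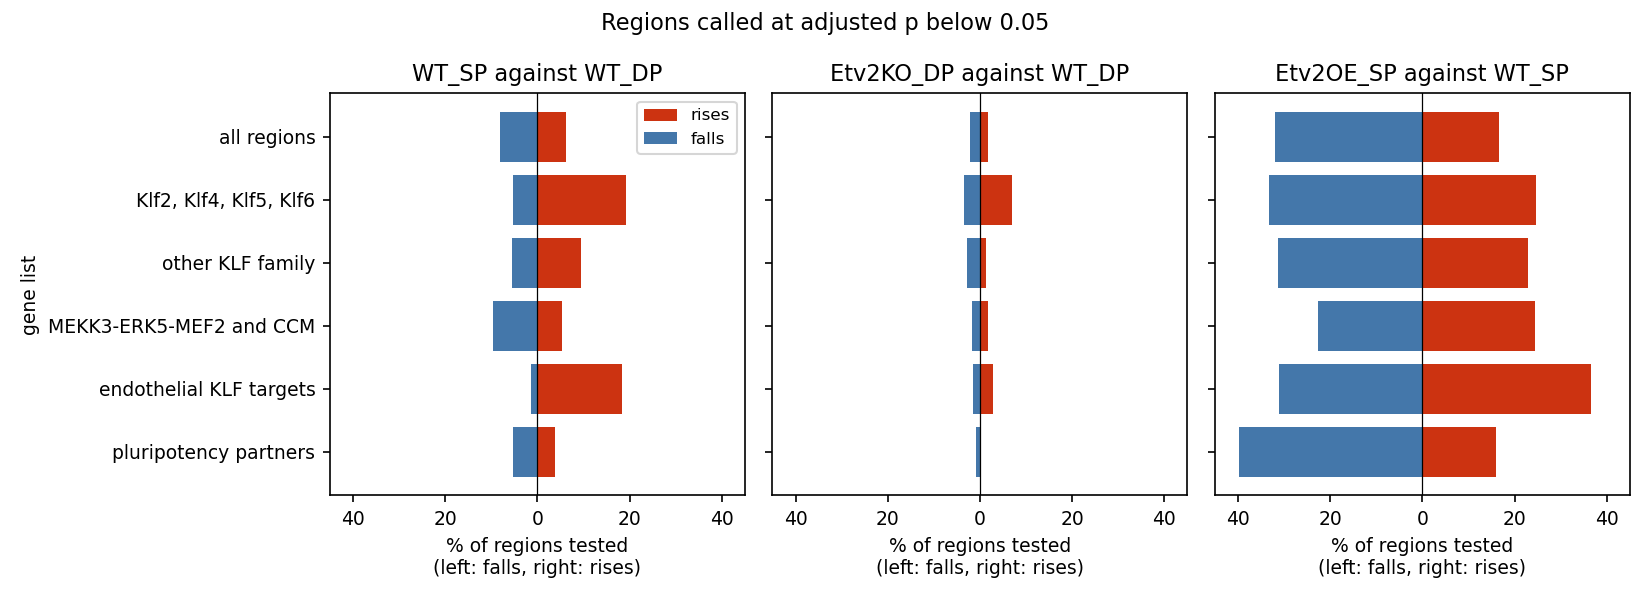
Share of regions called as rises and as falls, in percent, for the 4 KLF genes and the gene lists in each comparison, beside the share over all tested regions, with falls drawn to the left and rises to the right. The 4 KLF genes had 24.6% rises and 33.3% falls in OE SP against WT SP.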

How the data were processed

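The deposited table gives 1 value per region and library. The file's name calls these normalised counts, and they were treated as a signal that the authors had normalised in a way not given in the sources used here. Bowtie2, MACS2, DiffBind 3.14.1 and mm10 are named in the submitters' processing notes, without the role of each. A shift of reads for the Tn5 cut, the handling of duplicates and the pooling of libraries before peak calling are not given there either.

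Whole reads were recovered from the step of each library (100% of values, within 0.01 reads). Regions with a mean of at least 10 were tested on log2(value + 5) in limma 3.58.1 (R 4.3.3), with an intensity trend, 4 groups in 1 fit, no block and Benjamini-Hochberg adjustment over 167573 regions, and gene sums likewise over 18534 genes. The code was tested on simulated data. Alternatives were edgeR 4.0.16 and DESeq2 1.42.0 on the recovered reads, 3 rescalings, other pseudocounts and filters, a replicate block, the compared groups alone, and each library left out. Exact permutation of 2 against 2 libraries cannot go below p = 0.333, so none is given.

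The members, lists and tests were chosen with earlier results of these data known. Regions described are, per gene, the strongest inside or within 1 kb of it and, per comparison and direction, up to 3 called regions of lowest adjusted p; others are given by counts or short values. Up to 3 genes of a list are named, by the lowest adjusted p among their regions. Replicate numbers were not used to pair the libraries in the main fit. Klf5 is not in the promoter table. Distances run from a region's midpoint to the gene span.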

Additional observations from a re-analysis of the deposited data

How the results depend on the processing

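Of the 57 regions, WT SP had 11 rises and 3 falls, KO DP had 4 and 2, and OE SP had 14 and 19. With 1 library left out they ran from 2 to 4 and 0 to 1, from 1 to 2 and 0 to 1, and from 11 to 19 and 14 to 21. The lone library is then assumed to vary like the other groups. Fits of the compared groups alone gave 26 rises and 5 falls in WT SP and 19 rises in KO DP. Over all 167573 regions they gave 37453 rises and 25969 falls in WT SP, and 14903 rises and 21995 falls in KO DP. Rescaling on the 10000 strongest regions gave 5 falls in WT SP, 7 rises in KO DP and 22 rises in OE SP, and quantile normalisation gave 8 rises in KO DP. Over all regions the rescaling gave 19972 falls, 5344 rises and 43578 rises in these comparisons. Quantile normalisation gave 5936 rises in KO DP over all regions. edgeR gave 5 falls in WT SP and 7 rises in KO DP. DESeq2 gave 7 rises in WT SP, 1 fall in KO DP and 12 falls in OE SP. A mean of at least 30, which tests fewer regions, gave 8 rises in OE SP, where 11880 of all 97743 regions tested rose. Only regions within 10 kb of a gene, by construction fewer, gave 1 rise and 0 falls in WT SP, 2 rises and 0 falls in KO DP, and 3 rises and 2 falls in OE SP. Except where the construction shows it, the cause was not tested.

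Gene sums that passed only under an alternative were as follows, in the order median of ratios, 10000 strongest regions, quantile, edgeR and DESeq2. Klf2 had 0.38, 0.25, 0.28, 0.31 and 0.31 in WT SP. In KO DP it had 0.55, 0.57, 0.52, 0.56 and 0.57, and in OE SP 0.43, 0.50, 0.32, 0.32 and 0.32. Klf6 in KO DP had 0.32, 0.34, 0.32, 0.33 and 0.34, and in WT SP 0.19 by quantile normalisation. Klf4 in OE SP had 0.50, 0.57, 0.45, 0.39 and 0.39, and Klf5 in OE SP had 0.26, 0.33, 0.15 and 0.15, DESeq2 not calling it. With the compared groups alone the sums were called at 0.47, 0.15, 0.26 and 0.32 for Klf2, Klf4, Klf5 and Klf6 in WT SP, and at 0.47 and 0.24 for Klf2 and Klf6 in KO DP. Of 18534 genes, these fits called 9239 as higher and 2044 as lower in WT SP, and 1611 as higher and 5010 as lower in KO DP. With 1 library left out, OE SP sums ran from -0.062 to 0.43 for Klf2, 0.081 to 0.42 for Klf4, -0.16 to 0.19 for Klf5 and -0.42 to -0.040 for Klf6. Those of WT SP ran from 0.43 to 0.51, 0.13 to 0.17, 0.24 to 0.28 and 0.29 to 0.36, and those of KO DP from 0.43 to 0.52, -0.080 to 0.028, -0.033 to 0.076 and 0.21 to 0.28. The region over the Klf2 start ran from -0.26 to 0.37 in OE SP. The lowest value came without OE SP replicate 2, where the median over all regions was -0.29.

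Correlations of replicate differences between groups were -0.0038 to 0.056, and same-numbered libraries were not treated as pairs in the main fit. Low correlations of this kind cannot show whether such libraries shared a culture or a day. With the replicate block, WT SP had 12 rises and 4 falls, KO DP had 5 and 2, and OE SP had 14 and 20, and no gene sum was called. Median depth per region was 27 to 42 reads, which limits the precision of weak regions.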

Other observations

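Of the 26 regions within 100 kb of the 4 genes but nearer to another gene, 22 lay around Klf2, where 2 rose in WT SP, 2 rose in KO DP, and 4 rose and 2 fell in OE SP. Limma called 14.3% of all tested regions in the first of these comparisons, 3.92% in the second and 48.5% in the third. The Klf2 neighbours were thus called less often than regions in general in WT SP and OE SP, and more often in KO DP. A pair of these neighbours, chosen after their values were seen, lay nearest to Ap1m1, which encodes a clathrin adaptor subunit. The first (chr8:72268316-72268716), 50.5 kb from Klf2, held 16.5 and 24.3 normalised reads in WT DP against 275 and 264 in WT SP, and 26 and 26.1 in KO DP against 1002 and 1574 in OE SP. Its log2 difference was 3.45 from WT DP to WT SP (called in limma), 0.31 from WT DP to KO DP (not called) and 2.20 from WT SP to OE SP (called). The second (chr8:72277261-72277661), 41.6 kb from Klf2, held 126 and 107 in WT DP against 115 and 128 in WT SP, and 299 and 342 in KO DP against 21.2 and 59.1 in OE SP. It was highest in KO DP (1.42, adjusted p 0.0300) and lowest in OE SP (-1.62 against WT SP, adjusted p 0.00128), the order also seen 6.1 kb upstream of Klf2.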
